A study of Rattus norvegicus with 6 samples.

Results

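Messenger RNA of 10 renal enzymes that make or break down eicosanoids, the signalling lipids derived from arachidonic acid, was followed in the renal cortex of rats given the 4,4' form of thiobis(6-tert-butyl-m-cresol), abbreviated TBBC. The genes were chosen by name, for the pathway they belong to, with earlier results of these data known. The 10 are Cyp4a1, Cyp4a2, Cyp4a3, Cyp4a8, Cyp2c23, Ephx2, Ptgs1, Ptgs2, Ptges and Hpgd. They are 10 of the 15645 genes that could be named on the array, and 16 of its 61537 non-control probes measure them. TBBC is a sulphur-bridged bisphenol used as a rubber and plastics antioxidant. One group of 3 male Sprague-Dawley rats (Crl:CD(SD), an outbred stock, bought at 5 weeks of age) received TBBC at 300 mg/kg/day for 4 weeks, and a vehicle group of 3 such rats received corn oil over the same 4 weeks. Total RNA of each animal's cortex was hybridised to its own 1-colour Agilent array, and the replicates are biological per the design text of the series. Levels are given as log2 of the probe's signal relative to the 75th percentile of its array, so they can be compared between arrays for 1 probe but not between probes.

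Arachidonic acid released from membranes is used by 3 kinds of enzyme. Cytochromes P450 of the 4A family hydroxylate its terminal carbon and make a hydroxyeicosatetraenoic acid that constricts renal arterioles and inhibits tubular sodium transport; in the rat kidney they are found mainly in proximal tubules and in small arteries. Cyp2c23, the main renal epoxygenase of the rat, makes epoxyeicosatrienoic acids, which dilate vessels, and the soluble epoxide hydrolase Ephx2 hydrolyses these to diols. Cyclooxygenases (Ptgs1, the constitutive form, and Ptgs2, the inducible form, which the macula densa also expresses) make prostaglandin H, Ptges converts it to prostaglandin E, and Hpgd inactivates prostaglandins.

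The 4A genes are close relatives. The stretches of 250 bases before the annotated start of Cyp4a2 (chr5:134170909-134171158), Cyp4a3 (chr5:134352237-134352486) and Cyp4a8 (chr5:133970227-133970476) are shown to make the likeness of their promoters visible; they lie outside the mRNA that the probes bind. They come from RefSeq, assembly GRCr8, and are written 5′ to 3′ on the gene's strand, which is the minus strand for all 3. Capitals mark AGGTCA, the core hexamer bound by many nuclear receptors, among them PPARalpha with its partner RXR.
Cyp4a2: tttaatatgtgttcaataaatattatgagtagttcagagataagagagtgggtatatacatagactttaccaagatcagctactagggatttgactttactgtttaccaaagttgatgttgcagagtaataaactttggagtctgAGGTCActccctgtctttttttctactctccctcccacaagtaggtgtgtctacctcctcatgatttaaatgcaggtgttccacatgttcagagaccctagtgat
Cyp4a3: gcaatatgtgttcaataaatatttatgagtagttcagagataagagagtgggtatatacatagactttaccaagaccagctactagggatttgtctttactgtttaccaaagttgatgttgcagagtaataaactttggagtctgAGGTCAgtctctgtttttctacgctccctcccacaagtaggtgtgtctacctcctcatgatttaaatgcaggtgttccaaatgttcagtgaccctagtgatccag
Cyp4a8: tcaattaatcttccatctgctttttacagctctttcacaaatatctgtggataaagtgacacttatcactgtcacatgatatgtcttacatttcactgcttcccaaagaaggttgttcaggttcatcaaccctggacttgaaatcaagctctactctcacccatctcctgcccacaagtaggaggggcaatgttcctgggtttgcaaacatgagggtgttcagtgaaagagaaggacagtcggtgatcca
The Cyp4a2 and Cyp4a3 stretches were identical at 236 of 245 aligned bases (96.3%). Cyp4a8 matched Cyp4a2 at 60.1% and Cyp4a3 at 60.6% of the aligned bases. AGGTCA, searched on both strands, stood 105 to 100 bases before the start in Cyp4a2 and in Cyp4a3 and was not in the Cyp4a8 window; 14.1% of 33469 rat promoters of this length hold it, and so did 2 of the 8 members with a promoter sequence. The letters TGACNNNGC, the core of the antioxidant response element, and TATAAA, the TATA box, were in none of those 8 windows, against 10.1% and 12.9% of all promoters. A match or its absence describes these letters in this window and no more.

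None of the eicosanoid enzymes passed the test. A probe was tested where it was well above background on every array of at least 1 group, which 14 of the 16 probes and 9 of the 10 genes did; Ptgs2 was too dim. The brightest tested probe stood for its gene, and groups were compared with limma across 32956 transcripts (41992 probes). After Benjamini-Hochberg adjustment 0 of the 9 genes lay under 0.05, where 0.531% of all transcripts did (84 higher and 91 lower). At an unadjusted p under 0.05 the count was also 0 of 9, against 20% of all transcripts. Over single probes it was 2 of 14, both dimmer probes of Cyp4a8, against 20% of all tested probes. Only Cyp2c23 had groups that did not overlap, lower in TBBC, 1 of 9 genes where 28.3% of all transcripts were so separated. The median log2 fold change was -0.11 over the 9 genes and -0.024 over all transcripts. The 95% intervals lay within 2-fold in either direction for 6 of the 9 genes, the exceptions being Cyp4a3, Ephx2 and Hpgd. In whole cortex, fewer cells of a type and less RNA per cell cannot be told apart.

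**Figure D1:**
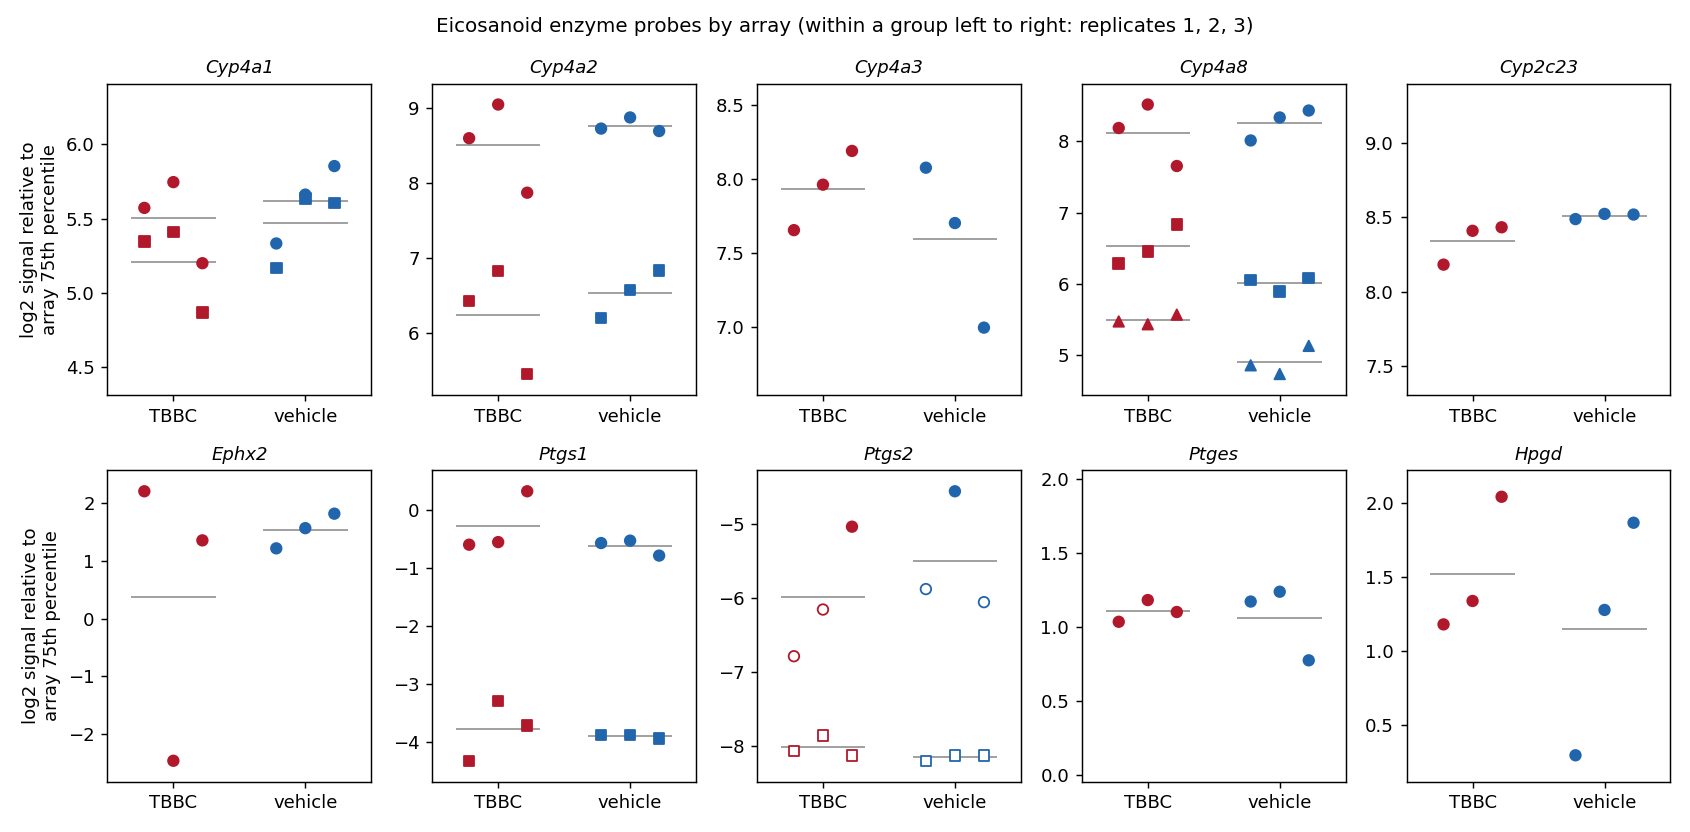
Log2 signal relative to the array's 75th percentile for each probe of the 10 genes, with TBBC arrays left and vehicle arrays right in each panel, replicates 1, 2 and 3 from left to right. Marker shapes are different probes of a gene, open markers lie at background and grey lines are group means; in most panels the groups overlap, and Ephx2 in TBBC 2 stands at -2.47, far below its other 5 values.

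The arrays differed in ways that touch several results. Per the file headers, all 3 vehicle arrays and TBBC 1 share a slide barcode and a scan date, and TBBC 2 and TBBC 3 share others. Between 67.1% and 70.9% of probes were well above background on each array, and no spot was saturated. All 18 proximal tubule markers passed the filter on dim probes, but so did all 6 inner medulla markers and 5 of the 6 liver markers. Of the 6 adrenal markers Cyp11a1 and Hsd3b1 passed, while Cyp11b1, Cyp11b2, Star and Mc2r did not. Passing the filter does not by itself mark renal cortex. Tubule injury markers were uneven among the treated animals. Their median log2 difference from the vehicle mean was 0.25 in TBBC 1, 2.59 in TBBC 2 and 2.13 in TBBC 3. Of the 9 markers 2 passed the threshold as higher, Havcr1 and Spp1, with log2 fold changes of 6.48 and 5.15, and 0 as lower. For 4 of the 9, every TBBC array, TBBC 1 included, lay above every vehicle array, where 13.1% of all transcripts did.

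Cyp4a1, an omega-hydroxylase of fatty acids, overlapped between the groups. Its brightest probe showed the log2 levels 5.57, 5.75 and 5.20 in TBBC 1, 2 and 3, against 5.33, 5.66 and 5.85 in vehicle 1, 2 and 3. The TBBC values lay within or just below the vehicle range. The means were 5.51 ± 0.28 in TBBC and 5.62 ± 0.26 in vehicle (SD, n = 3 each), a log2 fold change of -0.11 ± 0.20 (SE; 95% interval -0.59 to 0.37; limma adjusted p = 0.802). A second probe gave -0.26 ± 0.20 (adjusted p over all probes = 0.520).

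Cyp4a2, the 4A enzyme best known for renal arachidonate hydroxylation in the rat, showed the log2 levels 8.60, 9.04 and 7.87 in TBBC 1, 2 and 3, against 8.72, 8.87 and 8.69 in vehicle 1, 2 and 3. TBBC 2 held the highest and TBBC 3 the lowest of the 6 values, and the vehicle arrays lay close together between them. The SD was 0.59 in TBBC, larger than that of 89.7% of transcripts, and 0.10 in vehicle, larger than that of 39.0%. The log2 fold change was -0.26 ± 0.29 (SE; 95% interval -0.96 to 0.44; limma adjusted p = 0.669), and the gene's other probe gave -0.30 ± 0.37.

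Cyp4a3, which shares nearly all of the printed stretch with Cyp4a2, ran in another order over the arrays. It showed the log2 levels 7.65, 7.96 and 8.19 in TBBC 1, 2 and 3, against 8.08, 7.70 and 7.0 in vehicle 1, 2 and 3. The highest value was in TBBC 3, where Cyp4a2 was lowest, and the lowest was in vehicle 3. The mean was 7.94 ± 0.27 in TBBC and 7.59 ± 0.55 in vehicle (SD, n = 3 each), with a log2 fold change of 0.34 ± 0.30 (SE; 95% interval -0.37 to 1.06; limma adjusted p = 0.563). Only 1 probe measured Cyp4a3.

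Cyp4a8, another fatty acid hydroxylase of the rat kidney, was measured by 3 probes that did not give the same picture. The brightest, A_42_P735495, showed the log2 levels 8.19, 8.51 and 7.65 in TBBC 1, 2 and 3, against 8.01, 8.33 and 8.43 in vehicle 1, 2 and 3. Its groups overlapped, and its log2 fold change was -0.14 ± 0.24 (SE; limma adjusted p = 0.792). The probe A_64_P040994 had 6.29, 6.46 and 6.84 in TBBC 1, 2 and 3, against 6.05, 5.89 and 6.09 in vehicle 1, 2 and 3. The probe A_64_P040989 had 5.47, 5.44 and 5.57 in TBBC 1, 2 and 3, against 4.86, 4.74 and 5.13 in vehicle 1, 2 and 3. On each of these 2 probes every TBBC array lay above every vehicle array. The differences were 0.52 ± 0.16 (1.43-fold, adjusted p over all probes = 0.169) for the one and 0.58 ± 0.13 (1.50-fold, adjusted p = 0.102) for the other, so neither passed the test. These 2 and the Cyp2c23 probe are the 3 of 14 member probes whose groups did not overlap, where 28.3% of all tested probes were so separated.

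The spread between probes of Cyp4a8 was wide for a gene on this array. Its 3 log2 fold changes covered a range of 0.72. Of the 6335 named genes with several tested probes 3.44% covered at least that range, with a median range of 0.13. Those genes were not matched to Cyp4a8 on the number of probes, and more probes can only widen a range. Probes of opposite sign occurred in 1589 of those genes (25.1%). The ranges were 0.15 for Cyp4a1, 0.039 for Cyp4a2 and 0.23 for Ptgs1. The scanner files used here give probe names and no probe sequences, so the share of signal that each 4A probe takes from a related transcript was not tested.

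**Figure D2:**
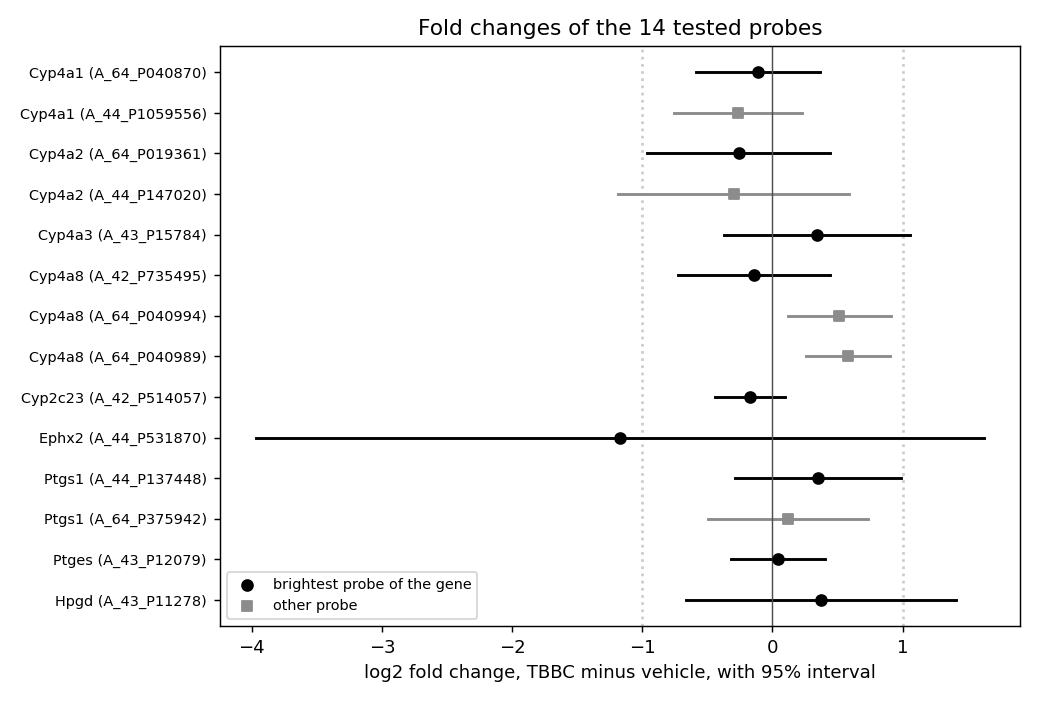
Log2 fold change, TBBC minus vehicle, of the 14 tested probes with 95% intervals from the limma fit over all probes. Round black markers are the brightest probe of each gene, square grey markers its other probes, and dotted lines mark 2-fold; the Ephx2 interval is the widest and the 2 dimmer Cyp4a8 probes lie at 0.52 and 0.58.

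Cyp2c23 was the member with the smallest p. Its log2 levels were 8.18, 8.41 and 8.43 in TBBC 1, 2 and 3, against 8.49, 8.52 and 8.52 in vehicle 1, 2 and 3. All TBBC values lay below all vehicle values, but by little, and TBBC 1 lay furthest down. The vehicle SD of 0.0191 was larger than that of only 2.68% of transcripts. The log2 fold change was -0.17 ± 0.11 (SE; limma adjusted p = 0.449), and its 95% interval, -0.44 to 0.10, spans 0.738-fold to 1.07-fold. Beside it, the median log2 fold change over the 18 proximal tubule markers was -0.25, with 16 below 0, 7 lower with no overlap between the groups, where 15.2% of all transcripts were, and 0 past the threshold. Their summed signal, relative to the 75th percentile, was 3005 to 3813 in TBBC arrays and 3907 to 4187 in vehicle arrays. Bright probes weigh most in such a sum. Their part in the Cyp2c23 value was not tested.

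Ephx2 gave the largest mean difference among the members, and 1 array made it. Its log2 levels were 2.21, -2.47 and 1.36 in TBBC 1, 2 and 3, against 1.22, 1.57 and 1.82 in vehicle 1, 2 and 3. TBBC 1 held the highest value of all 6 arrays and TBBC 3 lay inside the vehicle range, while TBBC 2 lay 12.9-fold below the next lowest array and 16.1-fold below the vehicle mean. The TBBC mean was 0.37 ± 2.49 and the vehicle mean 1.54 ± 0.30 (SD, n = 3 each), a log2 fold change of -1.17 ± 1.16 (SE; 95% interval -3.98 to 1.64; limma adjusted p = 0.621). Without TBBC 2 it was 0.25 (adjusted p = 0.733).

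The Ephx2 spot on TBBC 2 carried no outlier flag and was well above background. Its processed intensity was 156, from a median signal of 224.5 over a local background of 40, whereas the spot had processed intensities between 2318 and 4552 on the other 5 arrays. Ephx2 had 1 probe, so no other spot checks this value. A value at least 8-fold below all other arrays was seen for 1, 6 and 9 of 32956 transcripts in TBBC 1, 2 and 3, and for 2, 11 and 0 in vehicle 1, 2 and 3. In TBBC 2 the gap of Ephx2 was the third largest of the 6, and the only other named gene among them was Slc27a5, a liver-type fatty acid and bile acid CoA ligase, with a log2 gap of 6.62.

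The genes beside Ephx2 on the chromosome were examined after its values were seen. In the GRCr8 gene order the 4 tested neighbours on one side are Ccdc25, Scara3, Clu and Gulo, and the 4 on the other are Chrna2, Ptk2b, Trim35 and Adra1a. Their differences in TBBC 2 from the vehicle mean ran from -1.06 for Gulo to 2.59 for Clu on the log2 scale, against -4.01 for Ephx2. TBBC 2 was the lowest array for Scara3, Gulo, Ptk2b and Trim35 and not for the other 4 neighbours.

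**Figure D3:**
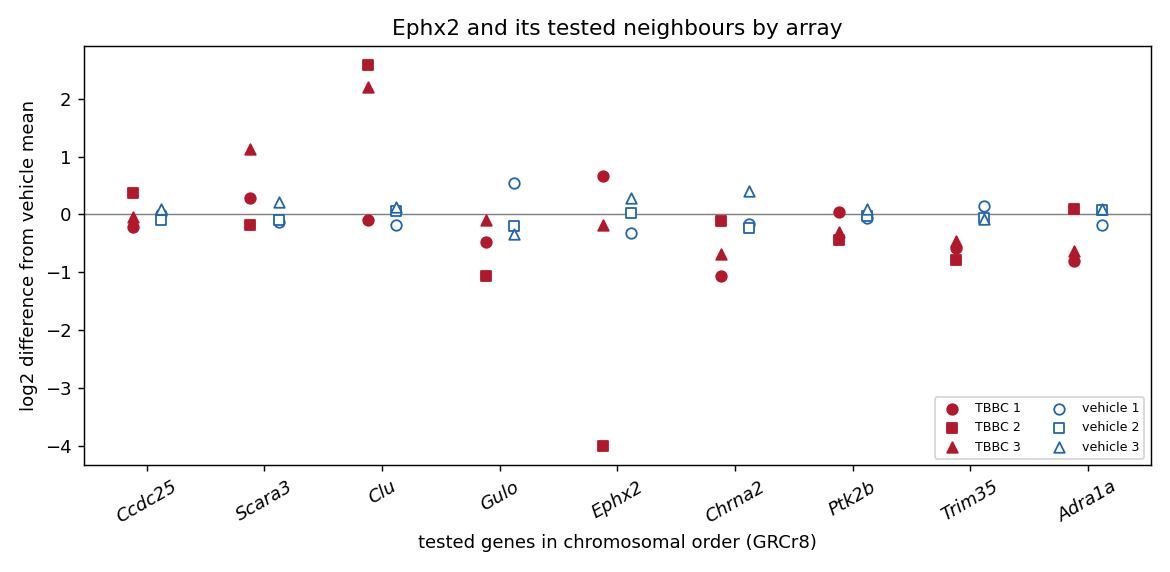
Log2 difference from the vehicle mean on each array for Ephx2 and its 4 nearest tested genes on either side, in chromosomal order; filled markers are TBBC arrays and open markers vehicle arrays. Ephx2 in TBBC 2 lies at -4.01, while the lowest neighbour in that array, Gulo, lies at -1.06.

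Among the prostaglandin enzymes, Ptgs1 stood apart in 1 treated animal. Its brightest probe showed the log2 levels -0.61, -0.56 and 0.32 in TBBC 1, 2 and 3, against -0.58, -0.54 and -0.79 in vehicle 1, 2 and 3. TBBC 3 was the highest of the 6 arrays, and TBBC 1 and 2 lay within the vehicle range. The log2 fold change was 0.35 ± 0.26 (SE; 95% interval -0.29 to 0.99; limma adjusted p = 0.505), and 0.052 without TBBC 3. A dimmer second probe had -4.33, -3.30 and -3.72 in TBBC 1, 2 and 3, against -3.89, -3.88 and -3.94 in vehicle 1, 2 and 3. There TBBC 2 was highest and TBBC 1 lowest, and TBBC 3 also lay above the 3 vehicle arrays.

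Ptgs2 had 2 probes, and neither could be tested. The brighter showed the log2 levels -6.78, -6.15 and -5.03 in TBBC 1, 2 and 3, against -5.88, -4.56 and -6.05 in vehicle 1, 2 and 3. It was well above background on 1 TBBC array, TBBC 3, and on 1 vehicle array, vehicle 2. The other probe was well above background on 0 of 6 arrays, so no fold is given. Nos1, which marks the macula densa, did not pass the filter either.

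Ptges, the inducible synthase of prostaglandin E, had the smallest SD among TBBC arrays of the 9 brightest probes. Its log2 level stood at 1.03, 1.18 and 1.1 in TBBC 1, 2 and 3, against 1.17, 1.24 and 0.77 in vehicle 1, 2 and 3. The TBBC values lay inside the vehicle range, with an SD of 0.073, larger than that of 9.22% of transcripts. The log2 fold change was 0.044 ± 0.15 (SE; 95% interval -0.32 to 0.41; limma adjusted p = 0.902).

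Hpgd, which oxidises prostaglandins to inactive keto forms, varied widely in both groups. The 6 arrays gave the log2 levels 1.18, 1.34 and 2.04 in TBBC 1, 2 and 3, against 0.30, 1.28 and 1.87 in vehicle 1, 2 and 3. The groups overlapped, and vehicle 1 was the lowest and TBBC 3 the highest array. The vehicle SD of 0.79 was larger than that of 98.1% of transcripts. The log2 fold change was 0.37 ± 0.43 (SE; 95% interval -0.67 to 1.42; limma adjusted p = 0.679).

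TBBC 3 held an extreme value for most of these genes. It was the lowest of the 6 arrays for both Cyp4a1 probes, both Cyp4a2 probes and the brightest Cyp4a8 probe, and the highest for Cyp4a3, Hpgd, the brightest Ptgs1 probe and the other 2 Cyp4a8 probes. Markers of other cells were also uneven on that array. Of 17 leukocyte markers 15 were tested and 0 passed the threshold, and their median differences from the vehicle mean were -0.22, -0.22 and 0.89 in TBBC 1, 2 and 3, against -0.21, -0.0043 and 0.16 in vehicle 1, 2 and 3. Their summed signal was 106, 118 and 234 in TBBC 1, 2 and 3, and 145 to 158 in vehicle arrays. The bright probes of Lyz2 and Cd74 (log2 levels 7.06 and 5.58 in TBBC 3) weighed most in that sum. These 2 went different ways. Lyz2 was highest in TBBC 3, whereas Cd74 was lower on every TBBC array than on every vehicle array (log2 fold change -0.85, limma adjusted p = 0.171). Of the 15 tested markers 10 had a log2 fold change above 0 and 5 below. Cd79a and Mpo could not be matched to a probe. Markers of the S3 segment of the proximal tubule, of which 8 of 8 were tested and 0 passed, had median differences of -0.37, -0.36 and -1.02 in TBBC 1, 2 and 3. Their summed signal was 422, 548 and 368 in TBBC 1, 2 and 3, and 527 to 750 in vehicle arrays. The bright probes of Acy3 and Slc3a1 (log2 levels 8.58 and 7.25 in TBBC 2) weighed most in that sum. The S3 markers did not move together: Acy3 and Slc5a8 had their highest value of the 6 arrays in TBBC 2, where Slc22a7 had its lowest. The part of these cells in the members' values was not tested.

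The other marker lists held no gene past the threshold. Median log2 fold changes were -0.36 for the thick ascending limb (8 tested), -0.13 for macula densa and renin cells (4), -0.32 for the collecting duct (10), 0.24 for the inner medulla (6), -0.16 for endothelium (8) and 0.077 for smooth muscle, mesangium and fibroblasts (10). They were -0.79 for liver (5), -0.17 for adrenal cortex (2) and -0.51 for adipose tissue (2). The liver list was uneven, with array medians against the vehicle mean of -0.74, -0.75 and -0.77 in TBBC 1, 2 and 3, and 1.50, -0.55 and -0.40 in vehicle 1, 2 and 3. Within it Fgb, a fibrinogen chain, had a log2 fold change of 4.87 with no overlap between the groups (limma adjusted p = 0.104), and Alb, albumin, was highest in vehicle 1.

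Leaving out single arrays or comparing within the shared slide changed the sign of several members. Without TBBC 3 the log2 fold changes of Cyp4a1, Cyp4a2 and Cyp4a8 were 0.043, 0.058 and 0.092. Without TBBC 2 that of Ephx2 was 0.25. Without vehicle 1 that of Hpgd was -0.052, and without vehicle 3 that of Ptges was -0.099 and of Cyp4a1 0.0088. That of Cyp4a3 came down to 0.046 without vehicle 3 but kept its sign. Within the shared slide, which holds TBBC 1 and all 3 vehicle arrays, the differences were -0.044 for Cyp4a1, -0.17 for Cyp4a2, 0.063 for Cyp4a3, -0.073 for Cyp4a8 and -0.33 for Cyp2c23. They were 0.67 for Ephx2, 0.030 for Ptgs1, -0.026 for Ptges and 0.033 for Hpgd. Among these differences only those of Ephx2 and Ptges had changed sign. That comparison takes the spread of a single TBBC array to equal that among vehicle arrays, and 0 members passed the limma test.

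**Figure D4:**
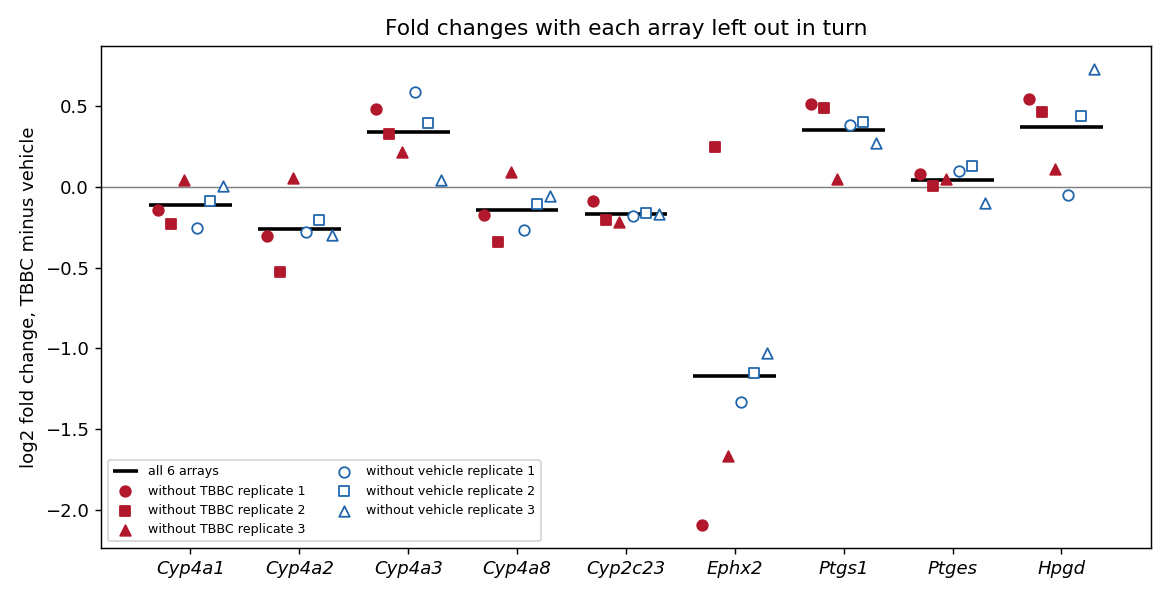
Log2 fold change, TBBC minus vehicle, of the 9 tested members with all 6 arrays (black line) and with each array left out in turn; filled markers leave out a TBBC array and open markers a vehicle array. Ephx2 moves most, between -2.09 without TBBC 1 and 0.25 without TBBC 2.

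The rest of the pathway was described from 6 lists of other genes. Of the enzymes and transporters that act beside the members on prostanoids, 12 of 13 were tested. Past the adjusted threshold 1 was higher and 0 were lower, where 0.531% of all transcripts passed. Log2 fold changes ran from -1.11 to 2.12 (median 0.12), with 6 above 0 and 6 below. The groups did not overlap for 2 that were higher and 2 that were lower, against 13.1% and 15.2% of all transcripts. At an unadjusted limma p under 0.05 the count was 3 of 12, against 20% of all transcripts. The gene past the threshold was Abcc4, a transporter that exports prostaglandin E and many drug conjugates from cells. Its log2 levels were 4.52, 4.61 and 3.75 in TBBC 1, 2 and 3, against 2.25, 2.10 and 2.18 in vehicle 1, 2 and 3. Every TBBC array lay above every vehicle array, by 4.33-fold in the mean (log2 fold change 2.12 ± 0.24 SE, limma adjusted p = 0.0343). Its adjusted p was 0.0581 without TBBC 1, 0.0795 without TBBC 2 and between 0.153 and 0.168 without any 1 vehicle array. With slide as a fixed term the log2 fold change was 2.35 but the limma adjusted p was 0.142. Within the shared slide alone the log2 fold change was the same, since under both settings TBBC 1 alone is set against vehicle. With no filter on dim probes the adjusted p was 0.0760. The next 3 genes of the list by p were Ptgr2, a prostaglandin reductase (-0.37 ± 0.11, adjusted p = 0.164), Akr1b1, aldose reductase, which also makes prostaglandin F (0.91 ± 0.36, adjusted p = 0.234), and Cbr1, a carbonyl reductase (0.32 ± 0.14, adjusted p = 0.271).

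Of the other arachidonate P450 genes and epoxide hydrolases, 18 of 29 were tested and 0 passed the threshold, with 7 at an unadjusted p under 0.05 (20% of all transcripts were) and a median log2 fold change of 0.022. Ephx1, the microsomal epoxide hydrolase, missed it narrowly. The log2 levels were 6.29, 5.08 and 5.21 in TBBC 1, 2 and 3, against 3.23, 3.12 and 3.24 in vehicle 1, 2 and 3. All TBBC arrays lay above all vehicle arrays and TBBC 1 lay highest, as it did for Ephx2. The mean difference was 5.03-fold (log2 2.33 ± 0.32 SE, limma adjusted p = 0.0508), and the adjusted p lay between 0.0065 and 0.219 over 21 alternative settings, under 0.05 in 12. With slide as a fixed term, where the difference rests on TBBC 1 alone, Ephx1 passed (limma adjusted p = 0.0157) and Abcc4 did not. Cyp2c11, the male-specific P450 of rat liver that also epoxidises arachidonate, had a log2 fold change of -3.25 ± 1.02 (adjusted p = 0.165). Cyp2j3, another epoxygenase, had -0.88 ± 0.28 (adjusted p = 0.172).

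The 4A genes are known targets of PPARalpha in rodents, and 30 of 30 genes of a list of Ppara and its targets were tested. None passed the threshold and 12 had an unadjusted limma p under 0.05, where 20% of all transcripts did. The groups did not overlap for 6 that were higher and 7 that were lower in TBBC, against 13.1% and 15.2% of all transcripts. The median log2 fold change was -0.088. By p the leading genes were Fabp3, a fatty acid binding protein (-1.01 ± 0.16, adjusted p = 0.0609), Angptl4, a lipoprotein lipase inhibitor (0.81 ± 0.13, adjusted p = 0.0641), and Acaa1b, a peroxisomal thiolase (0.92 ± 0.18, adjusted p = 0.0797). They differed in sign. None of the 4A genes was as far from 0 as any of these 3, but the 3 were picked by p from the list. The 4A genes were not so picked, so that contrast shows nothing about their response.

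The lists of arachidonate release, of prostanoid receptors and of lipoxygenase and leukotriene genes held no gene past the threshold. For arachidonate release, 11 of 14 genes were tested, 0 passed, and the median log2 fold change was -0.039. Of the 11, 3 had an unadjusted limma p under 0.05, where 20% of all transcripts did. That share applies to the next 2 lists as well. The leading genes were Pla2g1b, a secreted phospholipase (-0.50 ± 0.12, adjusted p = 0.104), Acsl4, which returns arachidonate to the CoA pool (0.61 ± 0.15, adjusted p = 0.109), and Pla2g6, a calcium-independent phospholipase (-0.50 ± 0.15, adjusted p = 0.148). Of the prostanoid receptors 8 of 9 were tested, 0 passed and 1 had an unadjusted p under 0.05 (median -0.068). Ptgdr2, a prostaglandin D receptor, had -0.53 ± 0.17 (adjusted p = 0.161), the thromboxane receptor Tbxa2r -0.38 ± 0.17 (0.270) and the prostaglandin F receptor Ptgfr 0.33 ± 0.17 (0.328). Of the lipoxygenase and leukotriene genes 11 of 17 were tested, 0 passed and 2 had an unadjusted p under 0.05 (median -0.044). Ltc4s, the leukotriene C synthase, had 0.72 ± 0.17 (adjusted p = 0.110), the dipeptidase Dpep1, which cleaves leukotriene D, -0.80 ± 0.27 (0.184), and the gamma-glutamyl transferase Ggt1 -0.31 ± 0.19 (0.430).

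**Figure D5:**
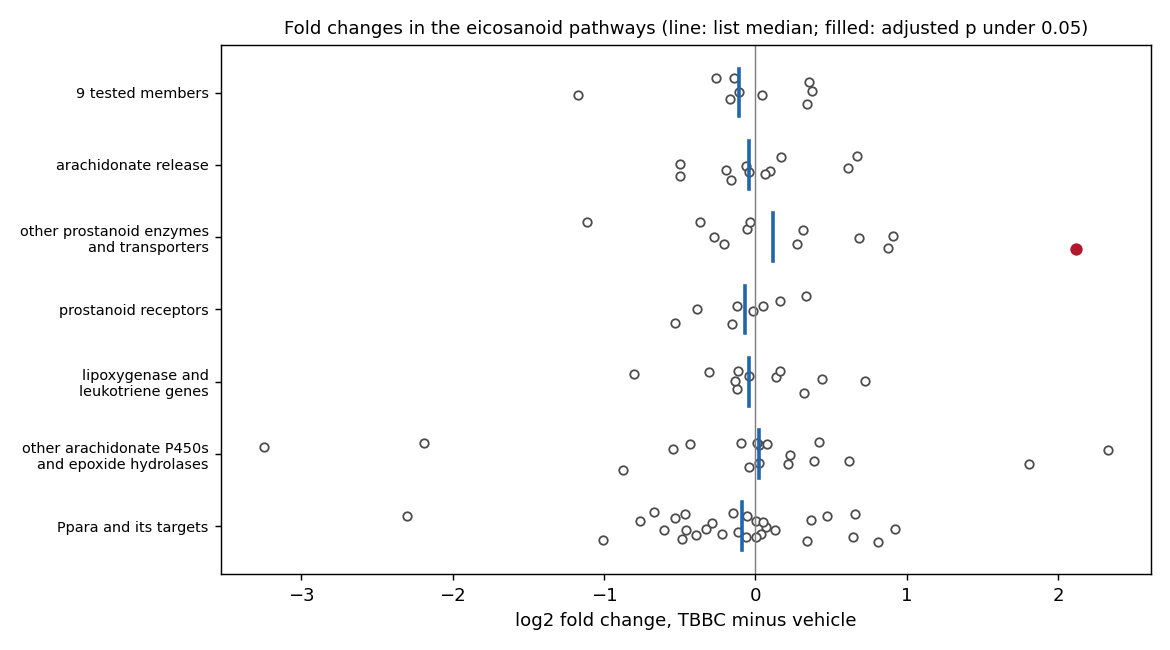
Log2 fold change, TBBC minus vehicle, of the 9 tested members (top) and of the tested genes of the 6 pathway lists; each point is a gene, blue lines are medians, and the filled point, Abcc4 at 2.12, is the gene past the adjusted threshold of 0.05. The medians lie between -0.11 for the members and 0.12 for the other prostanoid enzymes.

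The genes most like 2 members over the 6 arrays were found by Pearson correlation of log2 level, as a description of arrays that share slides and scan dates. For Hpgd, the member with the highest fold change, they were Gimap6 (r = 0.98), Zfp251 (0.97) and Riox2 (0.97). For Ephx2, the member with the lowest, they were Hs6st2 (r = 0.996), C1qtnf2 (0.995) and Fbxw8 (0.994). All 3 of these had their lowest value in TBBC 2, the array on which the Ephx2 correlation rests.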

How the data were processed

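The authors deposited, per the file headers, spot intensity values from Agilent Feature Extraction 10.7.1.1 (10.7 per the submitters' processing notes), background-subtracted within each array. The deposited value table holds a linear ratio per probe; set against the scanner values it was the processed signal over the array's 75th percentile within 1%, with no log and no centring. No statistical method of the authors is stated in the sources used here.

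Of 62976 spots, 1439 controls were left out. Accessions were matched to a RefSeq table (GRCr8), naming 28206 of 61537 probes; 33331 stayed unnamed. The headers name another build, so array coordinates are not given. Levels are log2 of the processed signal over its array's 75th percentile, controls excluded. Outlier-flagged spots (0 to 9 per array) were left out on their array. Testing required signal well above background on all unflagged arrays in 1 group or both, and 2 or more unflagged arrays per group.

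Groups, taken from the sample titles, entered a two-sided limma test (version 3.58.1 under R 4.3.3, lmFit then eBayes, no covariates). P-values were adjusted by Benjamini and Hochberg's method across all tested transcripts, a gene being its brightest tested probe; fits over single probes were adjusted over all probes. The script was tested on simulated data. The number of arrays limits the precision. Promoters were aligned with Biopython 1.88.

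All members are named. From each of 6 pathway lists the text names each gene past the threshold and the 3 with the smallest p among the rest, and for 2 members the 3 most correlated genes; 13 marker lists are given by counts. Members and lists were chosen with earlier results of these data known. Deviations of same-numbered animals had r = -0.095, 0.033 and -0.074, against -0.13 to 0.21 for unlike numbers. Replicate numbers were not treated as pairs, though so few values cannot show that the animals were unpaired. The 21 alternatives covered scaling, background, filter, probe choice, variance model, slide, replicate block and each array left out.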

Additional observations from a re-analysis of the deposited data

How the results depend on the processing

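No member passed the limma threshold under any of the 21 alternatives, and Cyp2c23, Cyp4a3 and Ptgs1 kept their direction in all 21. Ephx2 turned to 0.67 with slide as a fixed term and to 0.67 within the shared slide, Ptges to -0.026 under both, and Cyp4a8 to 0.32 with the mean of its probes in place of the brightest. With each array left out in turn the log2 fold change ran from -2.09 to 0.25 for Ephx2, -0.25 to 0.043 for Cyp4a1, -0.53 to 0.058 for Cyp4a2, -0.34 to 0.092 for Cyp4a8, -0.052 to 0.73 for Hpgd and -0.099 to 0.13 for Ptges. The count of transcripts past the threshold, 175, became 761 with normexp background correction, 1087 with eBayes with trend and robust, 333 with every probe on its own, 307 within the shared slide, 52 with no filter on dim probes, 48 with slide as a fixed term (43 of them higher), and 6 to 274 with an array left out (lowest without vehicle 2, highest without TBBC 3). The count of pathway genes past it, 1, became 2 with quantile or median scaling, the percentile over probes detected on all arrays, the stricter filter, the mean of probes, every probe, array weights or the shared slide, 5 with normexp, 7 with trend and robust, 0 with no filter and 0 to 2 with an array left out. It stayed 1 with slide as a fixed term, but the gene was Ephx1 and not Abcc4. With the replicate block limma called 0 transcripts (5366 at an unadjusted p under 0.05) and 0 pathway genes. Abcc4 had an adjusted p of 0.116 there. Whether the replicate numbers pair the animals is not known. The cause of these shifts was not tested. Dim probes limit what can be said of Ptgs2.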
